A study of Homo sapiens with 8 samples.

Results

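Peaks that antibodies against the glucocorticoid receptor (GR) gave in T47D A1-2 breast cancer cells treated with the progestin R5020 were set against those of the same cells without hormone. The members are all peaks of both deposited lists on chromosomes 1 to 22 and X that do not overlap a peak of the A1-2 input DNA. They numbered 1185 after R5020 and 394 in untreated cells, together 1579 of the 93493 peaks of all 8 lists of the series. An R5020 peak was called gained when it overlapped no untreated GR peak by at least 1 bp, and kept when it did. An untreated peak was called lost when it overlapped no R5020 peak. Counts are also given without chromosome 16 from 34 to 36 Mb, a window that held 318 of the R5020 peaks and 116 of the untreated ones, and which is called the dense chromosome 16 window.

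The series mapped GR and the progesterone receptor (PR) by ChIP-seq, in which an antibody pulls down a protein together with the DNA it sits on and that DNA is sequenced. The R5020 cells received 10 nM R5020, a synthetic progestin, for 60 min, and the untreated cells received no hormone and were taken at 0 min. Both were T47D A1-2 cells held in charcoal-stripped serum and then starved of serum, and both were precipitated with a mix of 2 GR antibodies, P-20 and PA1-511A. A1-2 is known as a derivative of T47D, a human breast cancer line, into which a GR expression vector was stably introduced. The labels do not say this, and which GR was precipitated was not tested. The lists used for look-up were GR after 10 nM dexamethasone (Dex, a synthetic glucocorticoid) for 60 min, PR after R5020 and PR without hormone in A1-2 cells, and PR after R5020 and without hormone in T47D MTVL WT cells, the line that the labels name as a control. PR was precipitated with the antibody H-190. With 1 library per condition, differences between conditions have no replicate check, and p-values are not reported. The 95% intervals treat peaks as counts, cover counting error only, and do not make peaks into replicates. The depth of each library was not known here, and longer lists can come from deeper libraries as well as from more binding.

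GR and PR are nuclear receptors that bind closely related DNA elements once a ligand is bound. Dex is a ligand of GR and R5020 is a ligand of PR. A line that has both receptors lets each be mapped at the same sites, and the comparison here gives which sites the GR antibodies recover when the ligand is one of PR.

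After R5020 the GR antibodies gained more peaks than they kept, and the gained peaks differed from the kept ones in place and shape. Of the 1185 R5020 peaks, 1052 were gained (88.8%, 86.8 to 90.5) and 133 were kept (11.2%, 9.48 to 13.2). With only 394 untreated peaks to meet, the longer R5020 list was bound to hold many gained peaks. Cut to its 394 peaks of highest score, it had 328 gained and 66 kept peaks. Of the 394 untreated peaks, 184 were kept (46.7%, 41.7 to 51.8) and 210 were lost (53.3%, 48.2 to 58.3). The window on chromosome 16 did not carry this split. Without it 792 of 867 R5020 peaks were gained (91.3%, 89.3 to 93.1), and of 278 untreated peaks 165 were lost (59.4%, 53.3 to 65.2). The R5020 list had 3.01 times the number of untreated peaks, and 3.12 times without the window, but the R5020 peaks covered 1686 kb against 110 kb for the untreated ones, which is 15.3 times as much. The difference lay in width. R5020 peaks had a median width of 978 bp, with a range of 457 to 19129 bp, and untreated peaks had a median of 226.5 bp, with a range of 66 to 2151 bp. Widths also differed between the untreated PR lists, with a median of 247.5 bp in A1-2 and 1242 bp in MTVL cells. What set the width of peaks in each library was not tested.

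**Figure D1:**
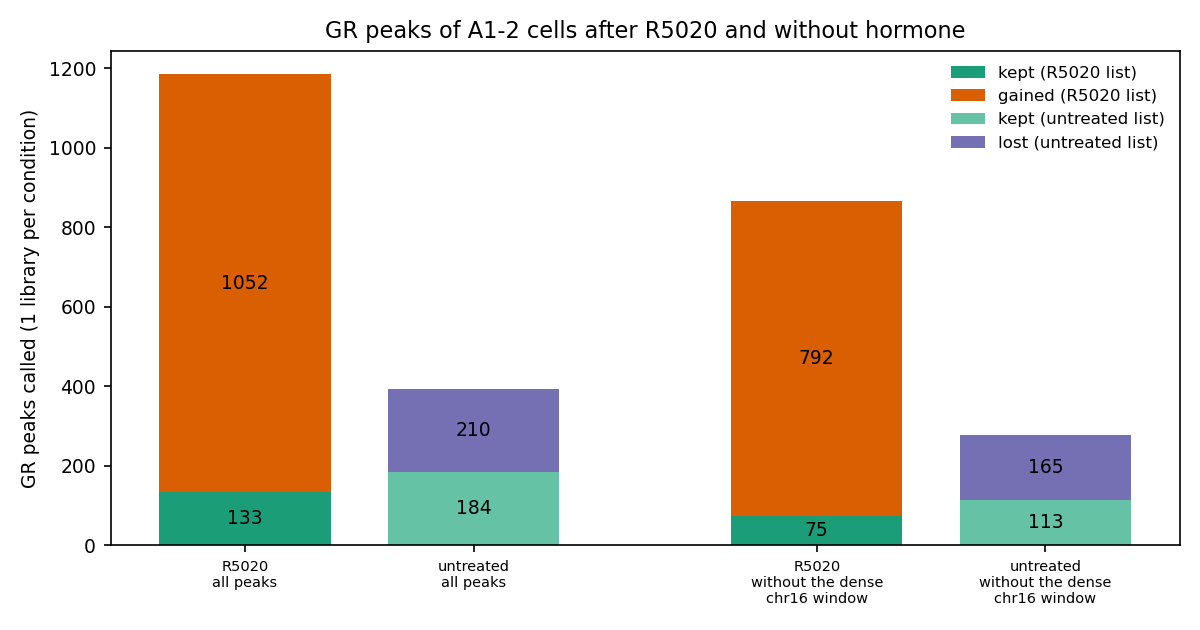
Number of GR peaks called in A1-2 cells after R5020 and without hormone (1 library each), split into gained, kept and lost peaks, for all peaks and without the dense chromosome 16 window. Gained peaks make up most of the R5020 bars, 1052 of 1185 and 792 of 867, and of the untreated bars 210 of 394 and 165 of 278 peaks were lost.

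Kept sites were mostly narrow untreated peaks inside a broad R5020 peak. The 133 R5020 peaks and 184 untreated peaks formed 186 overlapping pairs, and in 152 of these (81.7%, 75.4 to 87.0) the untreated peak lay wholly inside the R5020 peak. All R5020 peaks were at least 457 bp wide and untreated ones had a median of 226.5 bp. The widths of the 2 lists alone thus favour nesting. Of the 133, 103 covered 1 untreated peak and 30 covered more, with 11 at most. Midpoints of a pair lay a median of 473.2 bp apart, and with midpoints within 200 bp as the rule 51 R5020 peaks were kept. A kept site is therefore a shared stretch and not always the same summit. Kept R5020 peaks had a median width of 1606 bp and gained ones of 945 bp, and the untreated peaks that were kept had a median width of 215.5 bp and the lost ones of 236 bp. At 1 bp of overlap a wider R5020 peak has more room to meet a peak of any list, so the rule itself favours wide kept peaks. How much of the differences between gained and kept peaks came from width was not tested.

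The strongest kept peaks show this nesting. The one of highest score lay at chr7:10671419-10682765, was 11347 bp wide and scored 3205, and it covered an untreated peak at chr7:10679696-10679996 that scored 125. The score is the authors' own value for a peak, taken as 10 times the negative log10 of the p that MACS gives it, with a lowest value of 100 and a ceiling near 3100. The widest R5020 peak, at chr3:60473102-60492230, was 19129 bp wide with a score of 3100 and covered 11 untreated peaks. The kept peak at chr6:104162806-104168996 scored 3100 and its untreated partner scored 223. At chr18:22711560-22714768 an R5020 peak of 3209 bp covered 3 untreated peaks. The rule also named chr16:34722173-34729557 and, without the window, chr7:104617190-104625092, each over 2 untreated peaks. Every one of these sites also had a peak in the GR Dex list, in the PR R5020 list and in the untreated PR list of A1-2 cells.

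Ranked from the untreated side, the 5 kept peaks of highest score varied in width and in the score of their R5020 partner. The first, chr5:142661446-142661586, was 141 bp wide and scored 2055, inside an R5020 peak of 1024 bp that scored 1032. The second, chr1:155214404-155214835, was 432 bp wide and scored 1462, and its R5020 partner scored 188. The third, chr16:34442117-34443134, was 1018 bp wide and scored 765, with a partner that scored 1577. The order of the untreated scores was thus not that of the R5020 scores. The peak at chr5:142689662-142689778 was 117 bp wide and scored 671, with a partner that scored 157, and the one at chr16:34760276-34761138 was 863 bp wide and scored 670, with a partner that scored 698. Without the dense window the rule also named chr18:22713954-22714659, 706 bp wide with a score of 617 and a partner at 3100, and chr5:142779272-142779490, 219 bp wide with a score of 587 and a partner at 244. Scores of different libraries depend on depth and were not compared as levels. The 3 named peaks of chromosome 5 lay in a stretch where both untreated A1-2 lists had peaks and the untreated MTVL list and the A1-2 input had 0. The PR R5020 list of MTVL cells had 3 peaks in the stretch, away from the untreated GR peaks. Whether the 3 named peaks come from DNA introduced into the A1-2 line and not from the chromosome was not tested.

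The share of peaks kept was highest at the highest scores of each list. In the R5020 list, the share kept in 4 equal score classes, from low to high, was 4.73%, 10.1%, 11.8% and 18.2%. In the untreated list it was 39.4%, 32.7%, 55.1% and 59.6%. Without the dense window the untreated classes gave 24.3%, 31.9%, 49.3% and 57.1%. Score and width went together in part. Of R5020 peaks that scored at least 500, 56 of 188 with a width of 1500 bp or more were kept, against 2 of 144 narrower ones. Lost peaks had a median score of 125, against 153 for untreated peaks that were kept. Scores under 200 made up 84.3% of the lost peaks, 70.7% of the kept untreated peaks and 77.9% of the whole untreated list. Among gained peaks 45.6% scored under 200, and among kept R5020 peaks 25.6% did.

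Which sites the gained peaks fall on was read from the other lists. Of the gained peaks 401 (38.1%, 35.2 to 41.1) lay at a GR Dex peak, against 119 (89.5%, 83.0 to 94.1) of the kept ones, a difference of -51.4 percentage points (-56.4 to -44.3). At PR R5020 peaks of A1-2 cells lay 417 gained peaks (39.6%, 36.7 to 42.7) and 116 kept ones (87.2%, 80.3 to 92.4), a difference of -47.6 points (-53.1 to -40.2). Over the whole R5020 list the shares were 43.9% at GR Dex peaks and 45.0% at PR R5020 peaks. Gained peaks thus lay less often at known receptor sites of the cell line than kept ones did, though kept peaks were wider and had more room to meet one. The shares at sites of either receptor were similar, but the lists differed in length, with 18415 GR Dex and 28262 PR R5020 peaks. Similar shares are therefore not a measure of equal preference. Without the dense window the shares of gained peaks were 37.2% and 39.8%, and those of kept peaks 92.0% and 90.7%. With midpoints within 200 bp as the rule, the shares were 19.7% and 19.6% of gained peaks and 51.0% and 43.1% of kept peaks. Untreated PR peaks of A1-2 cells lay at 6.75% of gained and 53.4% of kept peaks, and without the window at 5.93% and 62.7%.

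The PR list of MTVL cells gave the opposite order. Of the gained peaks 239 (22.7%, 20.2 to 25.4) lay at a PR R5020 peak of MTVL cells, against 13 (9.77%, 5.31 to 16.1) of the kept ones, which is 12.9 points more (6.26 to 17.7). Without the dense window it was 29.9% against 16%, 13.9 points more (3.54 to 21.3). Kept sites were thus mostly sites of A1-2 libraries, shared by both receptors and present without hormone, and few of them were PR sites of the other line. Among peaks at both GR Dex and PR R5020 sites outside the window, 185 of 268 gained peaks (69.0%, 63.1 to 74.5) and 12 of 66 kept peaks (18.2%, 9.76 to 29.6) were also PR sites of MTVL cells. The difference was 50.8 points (38.5 to 60.0). For comparison, 86.9% of all 13411 PR R5020 peaks of A1-2 cells at GR Dex peaks were PR sites of MTVL cells.

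**Figure D2:**
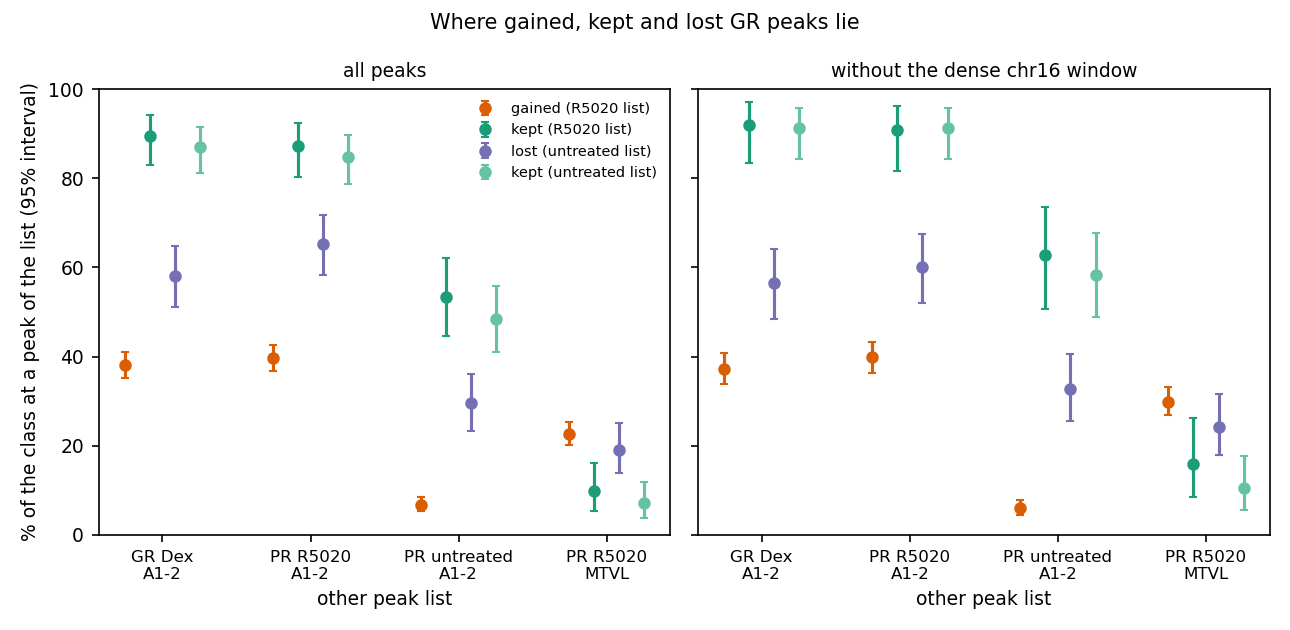
Share of gained, kept and lost GR peaks (percent, with exact 95% intervals) that lay at a peak of each other list, for all peaks (left) and without the dense chromosome 16 window (right). Gained peaks sit near 40% at GR Dex and PR R5020 peaks, kept peaks near 90%, and lost peaks between them, while at PR R5020 peaks of MTVL cells gained peaks are above kept ones.

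Lost peaks stood between the gained and the kept ones. Of the 210 lost peaks 122 (58.1%, 51.1 to 64.8) lay at a GR Dex peak, against 160 of the 184 untreated peaks that were kept (87.0%, 81.2 to 91.5), a difference of -28.9 points (-36.8 to -20.3). At PR R5020 peaks of A1-2 cells lay 65.2% of the lost and 84.8% of the kept untreated peaks, a difference of -19.5 points (-27.6 to -11.0). These are libraries with many more peaks, and with midpoints within 200 bp as the rule 33.0% and 36% of the lost peaks lay at GR Dex and PR R5020 peaks. In the highest of the 4 score classes of the untreated list, without the window, 29 of 30 lost peaks (96.7%) lay at a GR Dex peak, against 34% in the lowest.

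The lost peaks of highest score had peaks in those lists. The first lay at chr21:9825456-9827606, scored 2877 in untreated cells and had a GR Dex peak that scored 501 and a PR R5020 peak that scored 1026. The next 3 lay close together at chr5:139930060-139930829, chr5:139936662-139937049 and chr5:139931498-139931824, with scores of 2354, 900 and 600. Each of the 3 had a GR Dex peak, a PR R5020 peak and an untreated PR peak, and the MTVL and input lists held 0 peaks there. Whether these 3 come from DNA introduced into the A1-2 line and not from the chromosome was not tested. The fifth lay at chr1:207997201-207997620 with a score of 555, a GR Dex peak that scored 382 and a PR R5020 peak that scored 164. Loss here means only that no peak passed the caller's threshold in 1 R5020 library.

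Some lost peaks had an R5020 peak beside them. Within 1 kb of an R5020 peak lay 49 of the lost peaks (23.3%), and within 5 kb 73 (34.8%), against 21 (12.7%) and 30 (18.2%) without the dense window. Gained peaks had an untreated peak within 1 kb in 83 cases (7.89%) and within 5 kb in 216 (20.5%), and without the window in 36 (4.55%) and 81 (10.2%). Most gained peaks outside the window thus lay more than 5 kb from any untreated peak.

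Taking both receptor lists at once, the gained peaks split into 2 main sorts. At both a GR Dex and a PR R5020 peak lay 343 (32.6%), at neither 577 (54.8%, 51.8 to 57.9), at PR only 74 and at Dex only 58. Gained peaks were 88.8% of the R5020 list, so these shares lie near those of the whole list, of which 43.9% lay at a GR Dex peak and 45.0% at a PR R5020 peak. Of the kept peaks 112 (84.2%) lay at both and 10 at neither, and of the lost peaks 101 (48.1%) lay at both and 52 (24.8%) at neither. Without the window 268 gained peaks (33.8%) lay at both and 450 (56.8%) at neither. Gained peaks at neither had higher scores than those at both, with medians of 254 and 175. The smaller groups at PR only (47 peaks) and Dex only (27 peaks) had higher medians still, 297 and 327. In no other list at all lay 551 gained peaks (52.4%) and 41 lost peaks (19.5%).

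Width and score together part the R5020 list into groups that differ in where they lie. The limits used, 1500 bp of width and scores of 200 and 500, were chosen after the values were seen, so the groups are a description. Compact peaks, narrower than 1500 bp, with a score of at least 500 numbered 144 (12.2% of 1185). Only 2 of them were kept, 15 (10.4%) lay at a GR Dex peak, 22 (15.3%) at a PR R5020 peak and 118 (81.9%) at neither. Over the whole R5020 list 43.9% lay at a GR Dex peak and 45.0% at a PR R5020 peak. They were spread out, with 6 of 144 inside the runs of close peaks described below and 4 in the dense window.

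Wide peaks with such scores were of another kind. They numbered 188 (15.9%), of which 56 (29.8%) were kept, 122 (64.9%) lay at a GR Dex peak and 118 (62.8%) at a PR R5020 peak. In runs of close peaks lay 131 of them (69.7%), and 94 lay in the dense window. In the GR Dex list such wide, high-scoring peaks made up 1.51% of 18415 peaks, and in the untreated GR list 1 of 394.

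Wide peaks that scored under 200 numbered 87, and 75 of them (86.2%) lay on chromosome 3 beyond 150 Mb. Of these 87, 74 (85.1%) lay at neither receptor list. The remaining low-scoring peaks were compact and made up the largest group, 427 of 1185 peaks. Of them 217 (50.8%) lay at a GR Dex peak, 230 (53.9%) at a PR R5020 peak and 180 (42.2%) at neither. At a PR R5020 peak of the highest score decile of its list lay 113 (26.5%). The overlap with strong PR sites was therefore found mostly among low-scoring R5020 peaks, and high-scoring compact peaks mostly lay elsewhere.

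**Figure D3:**
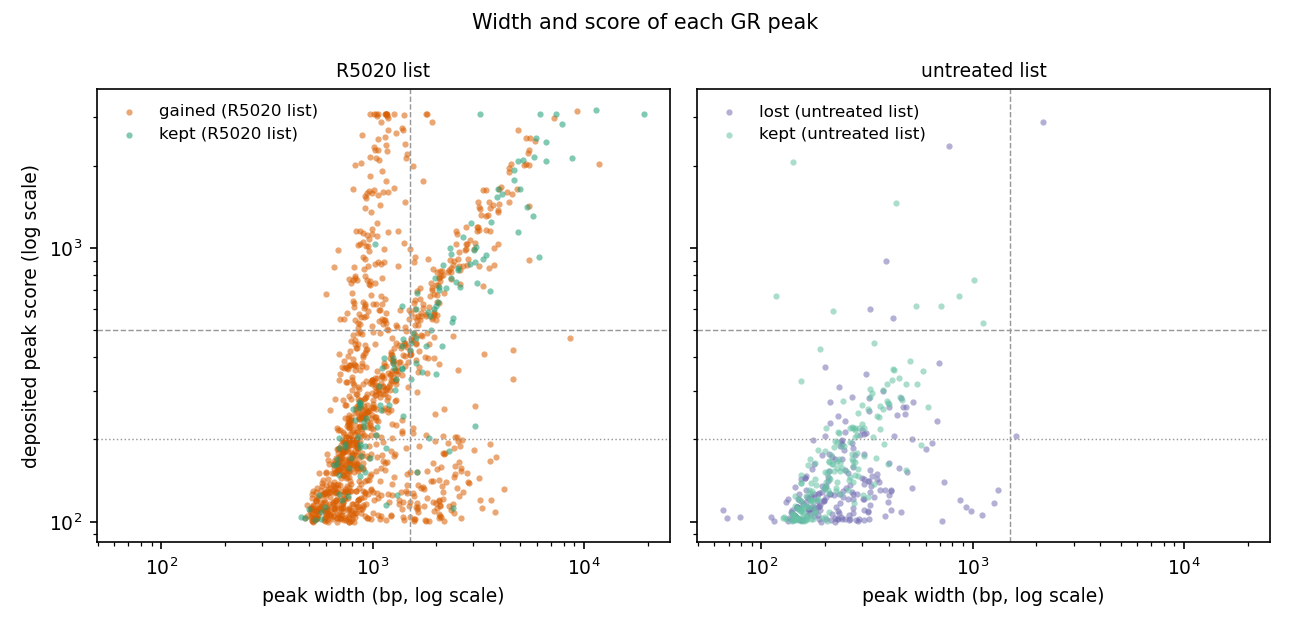
Width (bp) and deposited score of every GR peak of A1-2 cells, both on log scales, for the R5020 list (left, gained and kept) and the untreated list (right, lost and kept). Dashed lines mark 1500 bp and a score of 500 and dotted lines a score of 200, and the R5020 list shows a steep branch of compact peaks, a diagonal branch of wide ones that holds most kept peaks of high score, and a low branch of wide, weak ones.

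The strongest gained peaks came from both branches. The first, chr16:35148457-35157740, was 9284 bp wide and scored 3178, with a GR Dex peak that scored 220 and a PR R5020 peak that scored 246. Compact peaks at chr1:27021512-27022650 (1139 bp), chr1:51984687-51985718 (1032 bp) and chr4:185654845-185655997 (1153 bp) each scored 3100 and lay in no other list. At chr1:27018357-27020151 only the PR R5020 list of MTVL cells had a peak. Compact peaks at chr11:61348457-61349610 and chr15:64752095-64753256 also scored 3100, the first with a PR R5020 peak that scored 122. Of these sites only the first had a GR Dex peak. Ties at the score ceiling were named by chromosome and start, and 13 gained peaks reached it. Of the 13, 2 lay at both a GR Dex and a PR R5020 peak, 2 at PR only and 9 at neither.

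Gained peaks at both receptor lists of highest score outside the window were of mixed shape. At chr12:14410345-14411311 a peak of 967 bp scored 3100, with a GR Dex peak that scored 135 and a PR R5020 peak that scored 645. These began at 14411243 and 14411171, so they met the R5020 peak only near its right end. The next, chr7:141316723-141321593, was 4871 bp wide and scored 2700. Peaks at chr1:172015621-172021043, chr3:154785274-154789788 and chr7:141304546-141309760 were between 4515 and 5423 bp wide.

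Read from the receptor sites instead, GR peaks after R5020 were most frequent at the strongest ones. These counts leave out the dense window. Of 28000 PR R5020 peaks of A1-2 cells, 1.54% had a GR R5020 peak and 0.579% an untreated GR peak, and of 43067 PR peaks of MTVL cells it was 0.583% and 0.109%. In the highest decile of the A1-2 PR score 165 of 2800 sites had a GR R5020 peak (5.89%, 5.05 to 6.83) and 13 had an untreated one (0.464%, 0.247 to 0.793). In the other deciles together it was 1.06% (0.933 to 1.19) and 0.591%. The highest decile exceeded the others by 4.84 points (4.01 to 5.78) after R5020 and by -0.127 points (-0.345 to 0.213) without hormone.

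After R5020 the share was also highest in the highest decile of the GR Dex sites and of the PR sites of MTVL cells. Of GR Dex sites of the highest decile 7.71% (6.53 to 9.04) had a GR R5020 peak and 1.54% (1.03 to 2.22) an untreated one, against 1.69% and 0.741% in the others. Of MTVL PR sites of the highest decile 3.90% (3.34 to 4.52) had a GR R5020 peak and 0.116% an untreated one, against 0.214% and 0.108% in the others. Without hormone the highest decile exceeded the others by 0.802 points (0.307 to 1.49) at GR Dex sites and by 0.00773 points (-0.0689 to 0.166) at MTVL PR sites, so untreated GR peaks were also more frequent at strong GR Dex sites. With runs of close peaks and chromosome 3 beyond 150 Mb left out, that excess at GR Dex sites was 0.107 points (-0.195 to 0.608). The MTVL sites were called in the other line, so for them the ranking of sites used no A1-2 library. Of the 81 GR Dex peaks at the score ceiling, 33 (40.7%, 29.9 to 52.2) had a GR R5020 peak and 1 (1.23%, 0.0313 to 6.69) had untreated ones. With runs of close peaks and chromosome 3 beyond 150 Mb left out the highest deciles gave 6.82%, 5.62% and 3.85% for Dex, A1-2 PR and MTVL PR sites after R5020, and 0.625%, 0.257% and 0.119% without hormone.

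**Figure D4:**
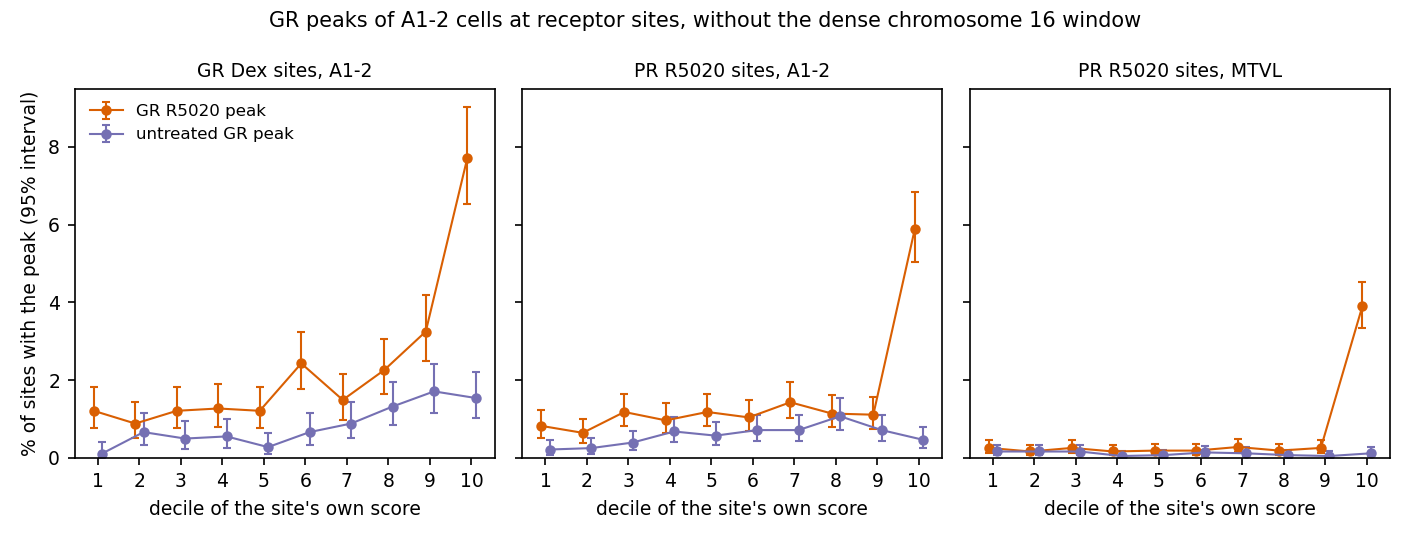
Share of receptor sites (percent, with exact 95% intervals) that had a GR R5020 peak or an untreated GR peak of A1-2 cells, by decile of the site's own score, outside the dense chromosome 16 window. The R5020 share reaches 7.71% at GR Dex sites, 5.89% at PR sites of A1-2 cells and 3.90% at PR sites of MTVL cells in the highest decile, and the untreated share stays at or below 1.71% in every decile.

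The R5020 peaks at these strong sites were themselves weak. The 157 gained peaks at PR sites of the highest decile had a median score of 145 and a median width of 792 bp, 115 of them (73.2%) scored under 200, and 156 (99.4%) lay at an MTVL PR peak. Among gained peaks at other PR sites, 158 in number, the median score was 284 and 60 (38.0%) lay at an MTVL PR peak. Strong PR sites were shared by both lines as a whole, with 99.5% of the 2800 at MTVL PR peaks and 95.6% at GR Dex peaks. Where a score of at least 200 was asked of every list, the highest decile held 1646 PR sites and began higher. Of these, 2.55% had a GR R5020 peak and 0.304% an untreated one. With the R5020 list cut to its 394 highest-scoring peaks, the share of the 2800 sites was 0.393%, against 0.464% for the untreated list.

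Examples at the strongest GR Dex sites, chosen after their values were seen, show the low scores. At chr14:95737843-95738626 the R5020 peak scored 235, where the GR Dex peak scored 3203 and the PR peaks of A1-2 and MTVL cells 3100 each, with no untreated GR peak. At chr3:32078291-32078986 the R5020 peak scored 187 and the GR Dex peak 3162. At chr1:195863270-195864114 the R5020 peak scored 113 and the GR Dex peak 3100. A different site, the GR Dex peak at chr1:110706938-110712783, was 5846 bp wide and held 5 R5020 peaks, 5 untreated GR peaks and 0 MTVL PR peaks.

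Gained peaks were uneven along the genome, and 2 regions held many of them. In the dense chromosome 16 window lay 260 gained peaks (24.7%, 22.1 to 27.4), 58 kept ones (43.6%) and 45 lost ones (21.4%). The window held 26.8% of all R5020 peaks and 29.4% of all untreated GR peaks, but 1.47% of the GR Dex peaks, 0.927% of the PR R5020 peaks, 3 MTVL PR peaks and 0 input peaks. The gained peaks there spread from 34182235 to 35278385, with a median width of 1008 bp, and 48.8% of them lay at neither receptor list. The R5020, Dex and untreated GR lists all filled the part from 200 to 1200 kb into the window. In the next 100 kb lay 18 R5020 peaks and 0 of every other list.

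**Figure D5:**
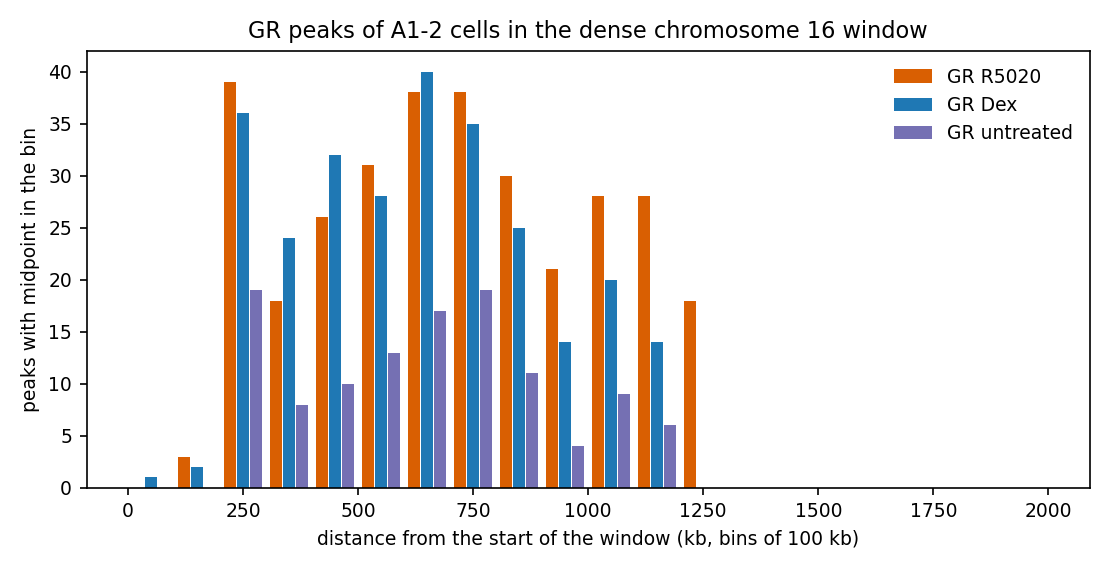
Number of GR peaks of A1-2 cells by midpoint in bins of 100 kb along the dense chromosome 16 window, counted from its start, for R5020, Dex and untreated cells (1 library each). All 3 lists fill the part from 200 to 1200 kb, the bin that starts at 1200 kb holds 18 R5020 peaks and 0 of the others, and no peaks lie beyond 1300 kb.

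The other region was chromosome 3 beyond 150 Mb. It held 113 gained peaks (10.7%), 1 kept and 8 lost. The 113 had a median width of 2025 bp and a median score of 128, and 102 (90.3%) lay at neither receptor list. Of all input peaks 7.28% lay there, against 2.42% of the GR Dex and 2.33% of the PR R5020 peaks, and the part of input DNA in these peaks was not tested.

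Close peaks also formed runs, which are stretches of at least 5 R5020 or untreated GR peaks with gaps of at most 20 kb. There were 26 runs, 3 of them in the dense window, and together they held 353 gained, 99 kept and 65 lost peaks. The longest, chr16:34323227-35221026, spanned 898 kb with 220 gained, 46 kept and 41 lost peaks. At chr16:34182235-34303074 lay 31 gained and 12 kept peaks, and at chr16:35248995-35278385 lay 9 gained peaks and no peak of another list. Outside the window, chr3:72306242-72327833 held 7 gained and 5 kept peaks. At chr7:141300736-141329548 lay 7 gained peaks, with 10 GR Dex, 6 PR R5020 and 6 untreated PR peaks but 0 untreated GR peaks. Runs held a larger share of the kept than of the gained peaks, and outside them 699 gained, 34 kept and 145 lost peaks were left.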

How the data were processed

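Per the submitters' processing notes, the tools were bedtools, MACS 1.4.2 and Bowtie 1.1.1, and the build was hg19. For their settings, the control library of the caller and the read depth, nothing was given in the sources used here. Each deposited file lists the peaks of 1 library with a score per peak. The score was used to rank and filter peaks within a list. Scores of several lists at a site are given side by side, but they depend on depth and are not a comparison of levels. Of 1198 deposited R5020 peaks, 1197 lay on chromosomes 1 to 22 and X and 12 were at input peaks. Of 455 deposited untreated peaks, 435 lay on those chromosomes and 41 were at input peaks. Positions count from 1.

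Lists were compared by overlap of at least 1 bp in Python 3.11.15 with numpy 2.4.6 and scipy 1.17.1. Shares have exact Clopper-Pearson intervals, and differences of shares have Newcombe intervals from statsmodels 0.14.6. Figures used matplotlib 3.10.9. Overlap steps were tested on simulated lists and checked against bedtools 2.31.1. The peaks named were the 5 of highest score in each class, with ties by chromosome and start, and the 5 runs with most gained peaks. Peaks, classes and regions were chosen with earlier results of these data known. The score is taken as 10 times the negative log10 of MACS's p, from its lowest value, 100, and the threshold of 1e-10 in the deposited names. Genes were to be placed only with an hg19 annotation, which was not used here, so sites are named by position.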

Additional observations from a re-analysis of the deposited data

How the results depend on the processing

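For 12 results, 131 alternative values were computed under 11 settings. These are counts and shares, which have no sign to turn, and 74 were close to the main value (inside its interval, or within 1.5 times for counts), and 57 moved. When all lists were held to scores from 200 up, 647 gained and 32 kept peaks were left, with 26.7% of gained peaks at GR Dex peaks, 28.1% at PR R5020 peaks and 30.6% in the dense window. With an overlap of 50% of the shorter peak the shares at Dex and PR peaks were 33.8% and 35.2%. Midpoints within 200 bp left 51 kept peaks, a lost share of 86.8%, and 19.7% and 19.6% at Dex and PR peaks, with kept peaks at 51.0% and 43.1% and lost peaks at 33.0% and 36%. A gap of at most 1 kb gave 216 kept peaks, 40.9% lost, 44.4% and 46.4% at Dex and PR peaks and 22% in the window. An R5020 list as long as the untreated one had 328 gained and 66 kept peaks, 72.1% lost, and 30.8% at each of Dex and PR peaks. With it the excess of R5020 over untreated GR peaks at the strongest PR sites, 5.89% against 0.464%, was no longer seen. The shares were 0.393% (0.196 to 0.702) and 0.464% (0.247 to 0.793). The cut keeps the highest scores, and R5020 peaks at these sites mostly scored low, so it was bound to leave most of them out. Without the window 75 peaks were kept and 59.4% lost. Without runs of close peaks 699 were gained, 34 kept, 76.3% lost, 34.3% at Dex peaks and 0 in the window. Merging peaks within 5 kb gave 628 gained, 74 kept, 35.0% at Dex peaks and 2.07% in the window. Without runs and chromosome 3 beyond 150 Mb, a setting added after seeing the data, 596 were gained, 34 kept, 75.3% lost, 44.0% at PR peaks and 0 in the window. Keeping peaks at input peaks, or leaving out those within 10 kb of one, moved none of these. The cause of the moves was not tested. No paired analysis was possible because each condition had 1 library. Depth was unknown, so a peak that is missing from a list may lie under the threshold of that library.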

Other observations

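R5020 peaks lay at input peaks less often than untreated GR peaks did, and such peaks were left out of the report. Of 1197 R5020 peaks 12 (1.00%) overlapped an input peak, with scores of 100 to 1602, against 41 of 435 untreated peaks (9.43%), with scores of 100 to 2527. The other A1-2 lists gave the same order. At input peaks lay 58 of 688 untreated PR peaks, against 111 of 18526 GR Dex and 291 of 28553 PR R5020 peaks.

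A stretch of chromosome 5 held 3 of the high-scoring untreated peaks that were kept, and untreated GR peaks were narrow there. After R5020 the GR list had 3 peaks in it, of 770, 1024 and 1393 bp. The untreated GR list had 6, between 142661207 and 142780116, with widths of 117 to 219 bp, and the untreated PR list of A1-2 cells had 8, between 142661262 and 142780128. The GR Dex list had 4 and the PR R5020 lists had 5 in A1-2 and 3 in MTVL cells. The untreated PR list of MTVL cells and the input list of A1-2 cells had 0. These 2 lists held no peaks as narrow, with shortest widths of 848 and 399 bp, so their lack of such peaks says little. The stretch near the lost peaks of chromosome 5 had 0 peaks in the GR R5020, MTVL and input lists, and 3 each in the GR Dex, PR R5020, untreated GR and untreated PR lists of A1-2 cells.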
